A study of Mus musculus with 8 samples.

Results

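Polycomb proteins keep developmental genes silent through histone marks. The Polycomb repressive complex PRC2 methylates histone H3 at lysine 27 through the methyltransferase Ezh2, which works only together with Eed and Suz12. The core of PRC2 also holds a histone-binding protein such as Rbbp4. PRC1 complexes ubiquitinate histone H2A through Rnf2 (Ring1b) or its paralog Ring1, and variant forms of PRC1 carry targeting proteins such as Kdm2b and Pcgf6. In embryonic stem cells both complexes sit on the promoters of lineage regulators, and cells without PRC2 still self-renew but differentiate poorly.

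The 10 genes described here are the PRC2 core subunits Ezh2, Eed, Suz12 and Rbbp4, the PRC2 partners Jarid2 and Mtf2, the PRC1 ligases Rnf2 and Ring1, and Pcgf6 and Kdm2b of variant PRC1. They were taken by symbol as subunits expressed in embryonic stem cells, by a rule that uses no measured value but was written with earlier results of these data known, and all 10 were present in both deposited tables, of 12416 genes in both and 13838 in either. All are protein-coding genes in RefSeq (GRCm38.p6).

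The cells were J1, a mouse embryonic stem cell line of strain 129S4/SvJae, grown without feeders in serum and leukemia inhibitory factor. Libraries fall into 4 groups of 2, given here as ribosome-protected fragments (RPF, or footprints) after eIF4A2 knockdown, footprints after control shRNA, total RNA after eIF4A2 knockdown and total RNA after control shRNA. All cells were infected with shRNA vectors, kept under 1 μg/mL puromycin for 3 days and harvested on day 4.5 after 1 min in 0.1 mg/mL cycloheximide, so the controls share infection, selection and the drug that holds ribosomes on mRNA. The protocol names shNT and shGFP as controls and sheIF4A2-2 and sheIF4A2-3 against eIF4A2, an RNA helicase of translation initiation. The sources used here do not say which shRNA went into which library, or whether a footprint library and a total RNA library share a culture.

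Library values are reads scaled by the authors to a common library size (written CPM), with 7947827 to 10682677 reads per footprint library and 8564582 to 12840349 per total RNA library. Eif4a2 footprints were 310.8 and 153.5 CPM in the knockdown, against 394.9 and 408.9 CPM in the control (57.8% of control, -0.88 ± 0.29 in log2, limma adjusted p = 0.273). Eif4a2 total RNA was 582.6 and 617.4 CPM in the knockdown, against 739.1 and 969.1 CPM in the control (70.3% of control, -0.50 ± 0.18, limma adjusted p = 0.29). Both knockdown libraries were below both controls in each assay, and in footprints knockdown 2 lay well below knockdown 1. All 13 stem cell markers were present in both tables, and their summed footprints were 5891 to 5905 CPM in the knockdown and 7696 to 8076 CPM in the control. For total RNA these sums ran from 6031 to 6073 CPM in knockdown libraries and from 7400 to 8037 CPM in control libraries. Single markers went both ways, with 10 negative and 3 positive log2 fold changes in each assay. Among all genes 49.4% were negative in footprints and 50.3% in total RNA. Fibroblast markers (5 of 10 present) summed to 29.4 to 31.5 CPM of footprints in the knockdown and 26.1 to 34.8 CPM in the control, and extraembryonic endoderm markers (5 of 8 present) to 11.4 to 15.1 CPM and 11.1 to 15.3 CPM. In total RNA the fibroblast markers summed to 24.3 to 25.5 CPM in the knockdown and 22.7 to 29.3 CPM in the control, and the endoderm markers (4 of 8 present) to 8.84 to 9.47 CPM and 7.21 to 10.5 CPM. Of the defining markers, Col3a1, Dcn, Lum, Postn, S100a4, Afp, Ttr and Foxa2 have no row in either table. In bulk samples fewer cells of a type and less RNA per cell cannot be told apart. The part of the lower summed stem cell marker level in the results below was not tested.

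Knockdown was compared with control by limma on log2(CPM + 1), fitted over all genes of a table with Benjamini-Hochberg adjustment. Fold changes below are on that scale, where low values shrink toward 0, and are given ± SE. Over all genes 0 of 12723 passed an adjusted p of 0.05 in footprints (0% called) and 0 of 13436 in total RNA (0% called). None of the 10 subunits passed in either, so the subunit values below are descriptions of where the libraries lie. In footprints 3 of the 10 had an unadjusted p below 0.05 on the lower side, against 6.74% of all genes, and 0 on the higher side, against 6.12%. In total RNA 0 of the 10 had, against 8.08% of genes lower and 6.82% higher. With 2 libraries against 2, an exact permutation test of a single gene cannot give a p below 0.333.

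In footprints the subunits lay mostly below control. Of the 10, 9 had a negative log2 fold change, against 49.4% of all genes, and 1 a positive one, against 50.6%. The median was -0.20, against 0.01 over all genes tested. In 5 subunits (Ezh2, Eed, Mtf2, Rnf2 and Rbbp4) both knockdown libraries were below both control libraries, where 22.5% of all genes had this order, and in 0 were both above, against 22.3%. These 5 included 3 of the 4 core PRC2 subunits, the PRC2 partner Mtf2 and the PRC1 ligase Rnf2, so the order was not particular to the core.

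**Figure D1:**
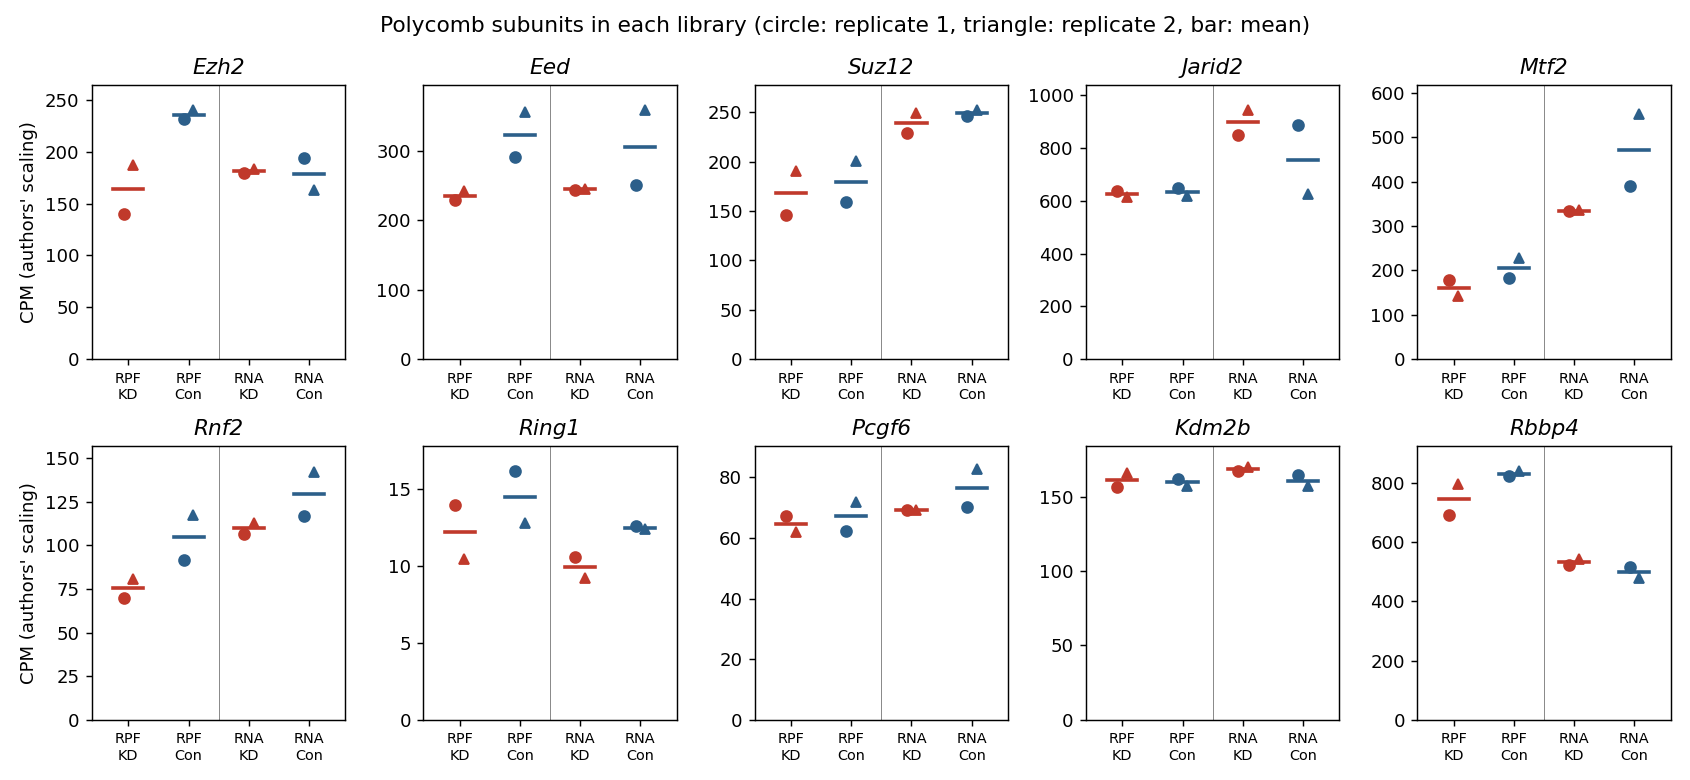
Values of the 10 Polycomb subunits in each library, in CPM as scaled by the authors, from 0 upward. Each panel is a gene, with footprints (RPF) left of the grey line and total RNA (RNA) right of it, knockdown (KD) in red and control (Con) in blue, circles for replicate 1, triangles for replicate 2 and bars for means. Ezh2 shows a gap between the groups in footprints (140.0 and 187.8 against 231.8 and 240.0) and none in total RNA.

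The promoter regions of the 3 subunits whose footprint intervals lie below 0 are shown, since these lie lowest of the 10. Each is the 250 bases before the RefSeq transcription start in GRCm38.p6, 5′ to 3′ on the gene's strand. Capitals mark the CCAAT box (CCAAT) and the GC box bound by Sp1 (GGGCGG) on either strand, and these matches do not overlap each other.
Ezh2, chr6:47595031-47595280, minus strand: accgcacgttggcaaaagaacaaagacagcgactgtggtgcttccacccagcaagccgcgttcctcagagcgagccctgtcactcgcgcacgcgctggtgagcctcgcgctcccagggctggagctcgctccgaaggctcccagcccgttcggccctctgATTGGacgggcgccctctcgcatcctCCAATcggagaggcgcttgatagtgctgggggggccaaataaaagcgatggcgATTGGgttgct
Eed, chr7:89980977-89981226, minus strand: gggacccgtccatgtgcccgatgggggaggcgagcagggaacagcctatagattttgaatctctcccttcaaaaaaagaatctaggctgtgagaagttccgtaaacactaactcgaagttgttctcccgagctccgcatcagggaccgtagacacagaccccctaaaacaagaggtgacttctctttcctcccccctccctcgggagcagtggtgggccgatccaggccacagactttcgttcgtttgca
Rnf2, chr1:151500992-151501241, minus strand: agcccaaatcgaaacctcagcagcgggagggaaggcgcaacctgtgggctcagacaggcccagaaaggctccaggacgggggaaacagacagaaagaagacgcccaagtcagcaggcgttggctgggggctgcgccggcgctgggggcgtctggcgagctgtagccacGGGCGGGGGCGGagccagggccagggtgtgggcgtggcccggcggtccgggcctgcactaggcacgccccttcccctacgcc

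The Ezh2 window held 3 CCAAT matches and no GGGCGG, the Rnf2 window 2 GGGCGG and no CCAAT, and the Eed window neither. Of 32851 RefSeq windows of this length, 33.8% held CCAAT and 32.7% GGGCGG. Over the 10 genes, at least 1 window held CCAAT in 6 and GGGCGG in 8, against 37.5% and 35.4% of 27025 genes. Kdm2b, Mtf2 and Jarid2 had more than 1 window each, which gives more places for a match. The 27025 genes were not restricted to expressed genes or matched for G and C, so these shares are a rough background. Of other motifs searched on both strands, E2F (TTTCCCGC, TTTCGCGC, TTTGCCGC or TTTGGCGC) was found in Suz12 and in 1.86% of windows. YY1 (AAGATGGC, 1.56% of windows) and the NRF1 palindrome (0.782%) had no match in the 10 genes. G and C made up 63.6% of the Ezh2 window, 54.4% of the Eed window and 70.4% of the Rnf2 window, against a median of 52.4% over all windows.

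Ezh2, the catalytic subunit of PRC2, had the lowest footprint fold change of the 10. Its footprints were 140.0 and 187.8 CPM in the knockdown libraries, against 231.8 and 240.0 CPM in the control libraries, from 1244 to 2422 reads each. The groups did not overlap, the knockdown mean was 69.5% of control, and the knockdown libraries were further apart than the control libraries. Ezh2 footprints were 59.3% of the control mean in knockdown 1 and 79.6% in knockdown 2, while Eif4a2 footprints were 77.3% and 38.2%. Ezh2 thus lay lower in the library that kept more Eif4a2 footprints, and a link between these levels was not tested. The log2 fold change was -0.54 ± 0.18 (95% interval -0.95 to -0.12, limma adjusted p = 0.283), and it was -0.33 without knockdown 1. Ezh2 total RNA was 179.7 and 183.5 CPM in the knockdown, against 194.1 and 163.2 CPM in the control. There the knockdown values lay between the control values, with a log2 fold change of 0.03 ± 0.14 (95% interval -0.32 to 0.38, adjusted p = 0.951).

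Eed, which binds trimethylated lysine 27 and stimulates Ezh2, had 228.6 and 241.9 CPM of footprints in the knockdown, against 291.0 and 356.1 CPM in the control. The groups did not overlap, and the log2 fold change was -0.45 ± 0.17 (95% interval -0.84 to -0.06, adjusted p = 0.319). Its total RNA was 243.6 and 245.4 CPM in the knockdown, against 250.8 and 359.4 CPM in the control. Both knockdown libraries were below both controls here too, but control 1 was close to them and control 2 stood high. The total RNA fold change was -0.30 ± 0.20 (adjusted p = 0.53), and without control 2 it was -0.04.

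Suz12, the scaffold of PRC2, had 146.0 and 190.6 CPM of footprints in the knockdown, against 159.1 and 200.3 CPM in the control. The groups overlapped, and the 2 libraries of each group were further apart than the group means (-0.10 ± 0.19, adjusted p = 0.871). Its total RNA was 229.4 and 248.9 CPM in the knockdown, against 246.3 and 251.8 CPM in the control, again with overlap (-0.06 ± 0.13, adjusted p = 0.871). The interval in footprints, -0.54 to 0.35, leaves room for changes of the size seen for Ezh2.

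Rbbp4, a WD40 protein shared by PRC2 and several deacetylase complexes, had the opposite order in the 2 assays. Its footprints were 691.0 and 796.8 CPM in the knockdown, against 822.0 and 839.0 CPM in the control. Its total RNA was 523.1 and 543.5 CPM in the knockdown, against 517.4 and 478.5 CPM in the control. Footprints were thus lower and total RNA higher in both knockdown libraries, an order found in 0.753% of 12358 genes and, of the 10 subunits, in Rbbp4 alone. The differences were small, at -0.16 ± 0.18 in footprints (adjusted p = 0.748) and 0.10 ± 0.14 in total RNA (adjusted p = 0.784). Without knockdown 1 the footprint value was -0.06 and without knockdown 2 it was -0.26, and the total RNA value was 0.04 without control 2 and 0.16 without control 1. How the authors handled reads shared with its close paralog Rbbp7 is not stated in the labels, so its level is uncertain to that extent.

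Of the PRC2 partners, Mtf2, a Polycomb-like protein that helps recruit PRC2 to CpG islands, was below control in both assays. It had 178.3 and 143.1 CPM of footprints in the knockdown, against 181.9 and 227.2 CPM in the control (-0.35 ± 0.19, adjusted p = 0.474). Knockdown 1 and control 1 nearly touched, and without knockdown 2 or without control 2 the value was -0.19. In total RNA it had 332.7 and 335.7 CPM in the knockdown, against 390.7 and 551.6 CPM in the control. The groups did not overlap, and the log2 fold change of -0.47 ± 0.19 (95% interval -0.95 to 0.00, adjusted p = 0.336) was the lowest of the 10 in total RNA. Without control 2 it was -0.22, and without control 1 it was -0.72.

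Jarid2, a founding Jumonji protein that lacks demethylase activity and links PRC2 to ubiquitinated H2A, had 635.0 and 613.2 CPM of footprints in the knockdown, against 648.3 and 616.2 CPM in the control. These values differed little within or between groups (-0.02 ± 0.17, 95% interval -0.40 to 0.36, adjusted p = 0.973). Total RNA of the gene was 848.3 and 945.4 CPM in the knockdown, against 885.5 and 625.2 CPM in the control. Control 2 stood apart below the other 3 libraries, and the log2 fold change was 0.27 ± 0.21 (adjusted p = 0.591), the highest of the 10. Without control 2 it was 0.02.

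Rnf2, the main H2A ubiquitin ligase of PRC1 in stem cells, had 70.1 and 81.0 CPM of footprints in the knockdown, against 91.8 and 117.6 CPM in the control. The groups did not overlap, and the log2 fold change was -0.46 ± 0.18 (95% interval -0.88 to -0.04, adjusted p = 0.345), and it was -0.28 without control 2. Its mRNA in total RNA was 106.7 and 112.7 CPM in the knockdown, against 116.7 and 141.9 CPM in the control, also without overlap (-0.23 ± 0.15, adjusted p = 0.527). The total RNA value was -0.09 without control 2 and -0.37 without control 1. Of the 45 pairs among the 10 subunits, Rnf2 and Eed were the second closest in profile, with a root mean square distance of 0.07 in log2 over the 8 libraries, each table centred on its own mean.

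Ring1, the paralog of Rnf2, had few reads, between 100 and 152 per footprint library and between 110 and 134 per total RNA library. Its footprints were 13.95 and 10.5 CPM in the knockdown, against 16.1 and 12.8 CPM in the control, and the groups overlapped (-0.23 ± 0.25, adjusted p = 0.742). With 1 footprint library left out the value ran from -0.42 (without knockdown 1) to -0.04 (without knockdown 2). For total RNA the values were 10.6 and 9.24 CPM in the knockdown, against 12.6 and 12.4 CPM in the control, with both knockdown libraries lower (-0.31 ± 0.17, adjusted p = 0.46).

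Pcgf6, the subunit that defines the variant complex repressing germline genes, had 67.4 and 61.8 CPM of footprints in the knockdown, against 62.5 and 72.0 CPM in the control. The groups overlapped (-0.05 ± 0.17, adjusted p = 0.922). In total RNA it had 69.4 and 69.3 CPM in the knockdown, against 70.1 and 82.7 CPM in the control, where control 1 was close to the knockdown and control 2 above it (-0.13 ± 0.14, adjusted p = 0.711). It was -0.02 without control 2 and -0.25 without control 1. Pcgf6 had the smallest distance of the 10 (0.09) from the mean profile of the subunits.

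Kdm2b, which brings a variant PRC1 to unmethylated CpG islands through its CXXC domain, had 156.3 and 165.6 CPM of footprints in the knockdown, against 162.1 and 157.3 CPM in the control. The groups overlapped, and the fold change of 0.01 ± 0.15 (95% interval -0.34 to 0.36, adjusted p = 0.983) was the only positive value of the 10 in footprints. With columns rescaled to a common median it was -0.03. Total RNA of the gene was 167.2 and 169.8 CPM in the knockdown, against 164.2 and 157.2 CPM in the control, higher in both knockdown libraries by a small margin (0.07 ± 0.13, adjusted p = 0.844, and 0.04 without control 2).

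In total RNA the subunits were split, with 6 negative fold changes, against 50.3% of all genes, and 4 positive, against 49.7%. Of the 10, 5 (Eed, Mtf2, Rnf2, Ring1 and Pcgf6) were below control in both knockdown libraries, where 24.6% of all genes were, and 2 (Kdm2b and Rbbp4) were above in both, where 23.3% were. The median log2 fold change was -0.10, against 0.00 over all genes tested. In both assays at once Eed, Mtf2 and Rnf2 lay below control, an order found in 12.4% of genes. In the authors' deposited table no subunit had an FDR below 0.05 in either assay, where they list 0.889% of genes as lower and 0.788% as higher in footprints and 3.19% and 2.21% in total RNA. The lowest FDR of the 10 in the authors' deposited table was 0.228, for Mtf2 in total RNA, and 0.353 for Ezh2 in footprints. On reads recovered from the total RNA table, DESeq2 called no subunit lower, against 1.25% of genes, and none higher, against 0.774%. edgeR's likelihood ratio test called none either, against 3.61% lower and 2.52% higher. The quasi-likelihood test also called none.

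**Figure D2:**
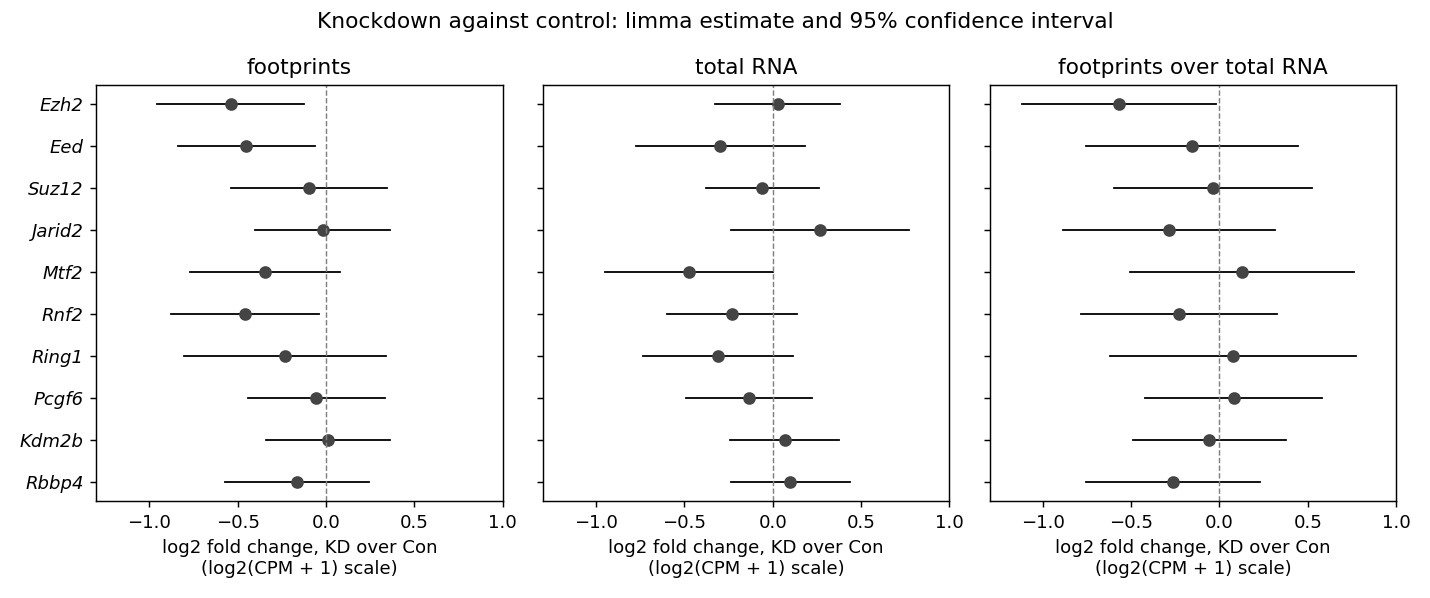
Log2 fold change of knockdown over control on the log2(CPM + 1) scale for the 10 subunits in footprints, total RNA and footprints over total RNA. Points are limma estimates and lines 95% confidence intervals without adjustment for many genes. In footprints the intervals of Ezh2, Eed and Rnf2 lie below 0, in total RNA none does, and in the ratio only that of Ezh2 does.

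The ratio of footprints to total RNA gives the ribosome load per mRNA up to a constant. The tables were scaled separately, so a ratio set across them is a description, and only its difference between knockdown and control was tested, as the interaction of assay and knockdown over all 8 libraries. Ezh2 had the largest difference of the 10, with ratios of means of 0.902 in the knockdown and 1.32 in the control. In same-numbered libraries its ratios were 0.779 and 1.02 in the knockdown, against 1.19 and 1.47 in the control. The interaction was -0.57 ± 0.25 (95% interval -1.11 to -0.02), with an adjusted p of 0.9999 by limma. With 1 of the 8 libraries left out it ran from -0.78 (without footprint knockdown 2) to -0.36 (without footprint knockdown 1). Of 12358 genes 0 passed (0% called) and 0.599% had an unadjusted p below 0.05 on the lower side, Ezh2 being the only subunit among them. On the higher side 0.955% of genes and 0 subunits had.

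The other interactions ran from -0.29 ± 0.27 for Jarid2 to 0.13 ± 0.29 for Mtf2, with a median over the 10 of -0.11, and 7 were negative, against 50.8% of all genes. Rbbp4 had -0.26 ± 0.22, Rnf2 -0.23 ± 0.25 and Eed -0.16 ± 0.27. Suz12 (-0.04), Kdm2b (-0.06), Ring1 (0.08) and Pcgf6 (0.08) had values well inside their errors. With 1 library left out, the sign turned for Eed, Suz12, Mtf2, Ring1 and Pcgf6. Jarid2 ran from -0.54 (without total RNA control 1) to -0.03 (without total RNA control 2), Rnf2 from -0.41 (without footprint control 1) to -0.05 (without footprint control 2), Rbbp4 from -0.36 to -0.16 (without footprint knockdown 2 and 1) and Kdm2b from -0.10 to -0.02 (without footprint knockdown 2 and 1).

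**Figure D3:**
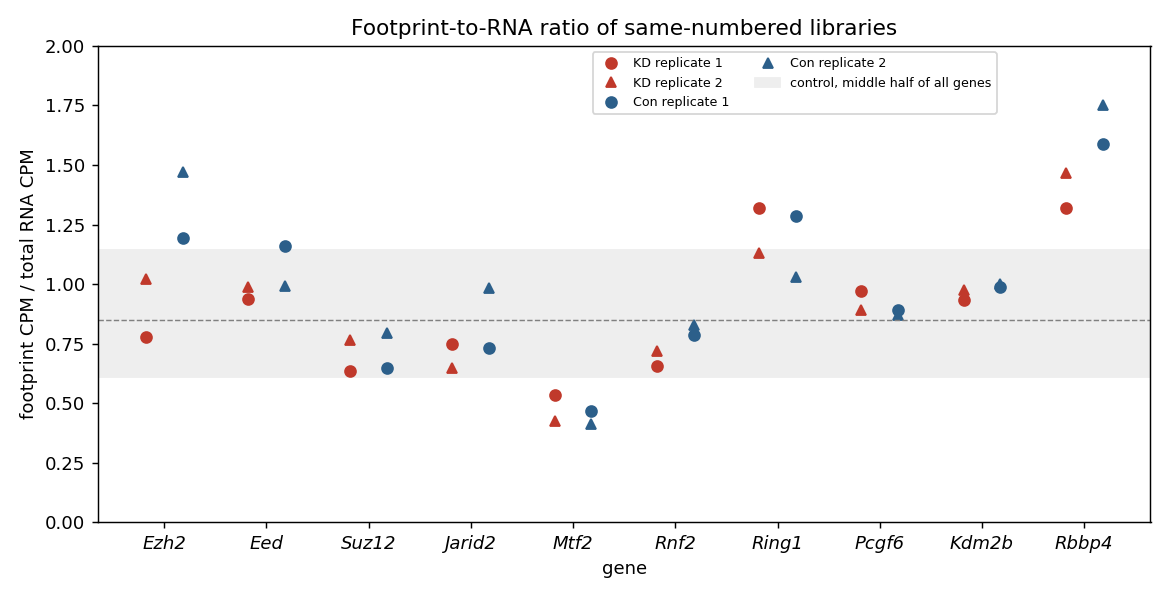
Ratio of footprint CPM to total RNA CPM in same-numbered libraries for the 10 subunits, knockdown (KD) in red left of control (Con) in blue, circles for replicate 1 and triangles for replicate 2. The grey band runs from the lower to the upper quartile of 8019 genes in the control (0.611 to 1.14), with the median (0.85) dashed. Rbbp4 lies above the band and Mtf2 below it in both groups, and Ezh2 lies above it in both control libraries and inside it in both knockdown libraries.

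Among 8019 genes with at least 10 CPM in both tables, the median ratio was 0.837 in the knockdown and 0.85 in the control. Rbbp4 had 1.39 in the knockdown and 1.67 in the control, at percentiles 88.7 and 93.7 of these genes. Mtf2 had 0.481 and 0.434, at percentiles 11.5 and 10.04. Ezh2 stood at percentile 56.9 in the knockdown and 84.1 in the control. Ring1 had 1.23 in the knockdown and 1.16 in the control, from few reads. Differences between genes in this ratio also depend on how much of each transcript is coding, which was not used here.

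**Figure D4:**
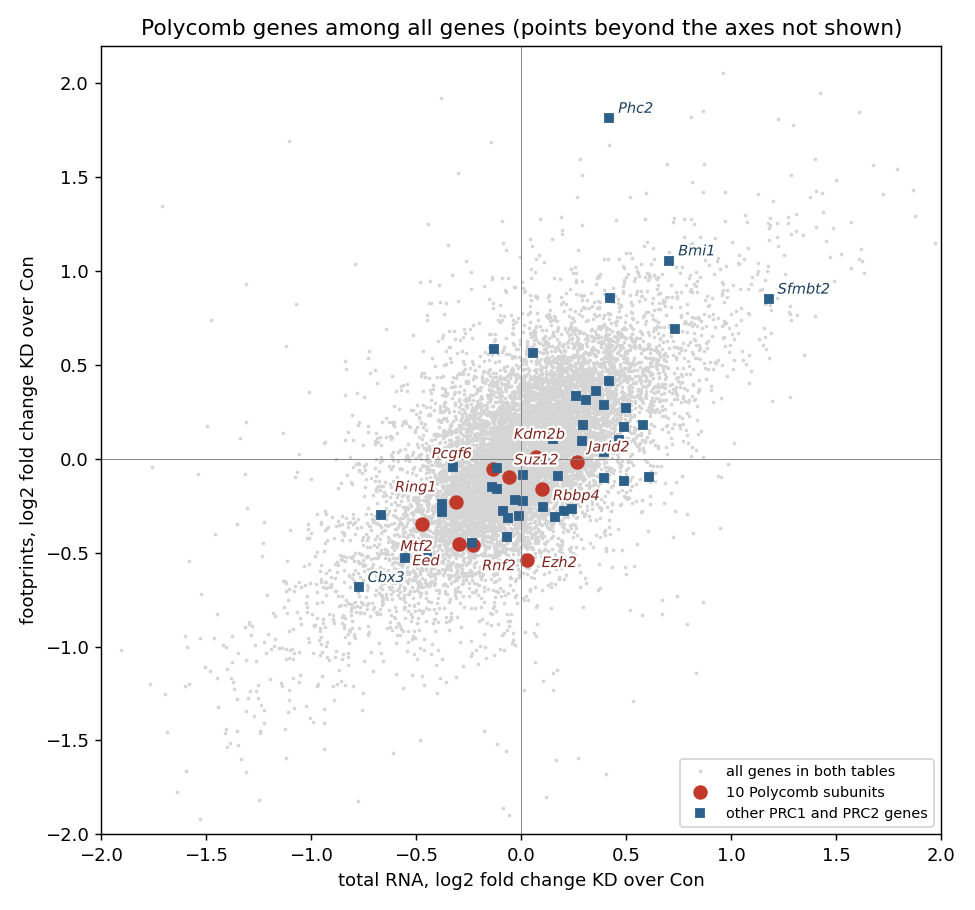
Log2 fold change of knockdown over control in footprints (y axis) against total RNA (x axis), on the log2(CPM + 1) scale, for all genes in both tables (grey), the 10 subunits (red circles) and other PRC1 and PRC2 genes (blue squares). The subunits lie within -0.54 to 0.01 on the y axis, inside the cloud of all genes, while Phc2 stands at 1.82 in footprints and 0.42 in total RNA.

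Other genes of the pathway were read from lists of known members. In either assay limma called 0 of them when the assay was fitted alone, with all its libraries and without a block. Other fits did call some. With all 8 libraries in 1 fit limma called 1 PRC1 gene in footprints and 1 germline gene in total RNA. Over all 12358 genes of that fit 89 were called in footprints and 97 in total RNA. With the replicate number as a block limma called 3 of 40 PRC1 genes and 4 of 18 MLL and demethylase genes in total RNA. It also called 4 of 33 developmental regulators and 6 of 25 germline genes there, and 636 of all 13436 genes. Of 8 further PRC2 genes in both tables the median log2 fold change was -0.12 in both footprints and total RNA. In footprints 2 of them, Ezh1 and Phf19, lay below control in both libraries and 1, Phf1, above, where 22.5% and 22.3% of all genes did, so these counts are near or under that share. Ezh1, the paralog of Ezh2, had -0.30 ± 0.19 in footprints (24.5 and 23.3 CPM in the knockdown, against 27.6 and 32.1 CPM in the control) and -0.01 ± 0.14 in total RNA. The authors' deposited table lists Epop, a PRC2-associated protein of stem cells, as lower in total RNA (FDR = 0.0479). Its mRNA in total RNA was 96.2 and 106.3 CPM in the knockdown, against 200.2 and 129.9 CPM in the control (-0.67 ± 0.22, limma adjusted p = 0.263), and its footprints overlapped.

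PRC1 genes lay on both sides of control. Of 41 tested in footprints 9 lay above control in both libraries and 10 below, close to the share of all genes (22.3% and 22.5%), and in total RNA 16 of 40 lay above (23.3% of all genes) and 7 below (24.6%). Phc2, a SAM-domain protein of canonical PRC1, had 24.98 and 45.2 CPM of footprints in the knockdown, against 11.4 and 6.84 CPM in the control (1.82 ± 0.33, adjusted p = 0.103). For total RNA the values were 29.3 and 31.6 CPM in the knockdown, against 28.1 and 17.96 CPM in the control (0.42 ± 0.23), and the interaction was 1.40 ± 0.45 (limma adjusted p = 0.9999). The authors' deposited table lists Phc2 as higher in footprints with an FDR of 5.13e-05.

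Bmi1, a PCGF subunit of canonical PRC1, had 9.15 and 9.32 CPM of total RNA in the knockdown, against 5.71 and 4.88 CPM in the control (0.70 ± 0.18, limma adjusted p = 0.179). Its footprints were 5.51 and 3.98 CPM against 2.02 and 1.49 CPM, from 15 to 49 reads per library. The MBT-domain gene Sfmbt2 had 93.2 and 127.0 CPM of total RNA in the knockdown, against 51.2 and 44.1 CPM in the control (1.18 ± 0.19, limma adjusted p = 0.105), and rose by DESeq2 (adjusted p = 0.000112). Its relative Sfmbt1 had 0.73 ± 0.18 in total RNA. Cbx3, a heterochromatin protein found in the Pcgf6 complex, had 207.6 and 204.2 CPM of total RNA in the knockdown, against 303.4 and 410.8 CPM in the control (-0.77 ± 0.18, limma adjusted p = 0.144), and fell by DESeq2 (adjusted p = 0.0223). Its footprints were 239.1 and 206.7 CPM in the knockdown, against 359.1 and 356.6 CPM in the control (-0.68 ± 0.16, limma adjusted p = 0.157). Sfmbt2 and Cbx3 were the only 2 of the 40 called by DESeq2, and the likelihood ratio test called 3 higher and 1 lower. Over all genes DESeq2 called 0.774% higher and 1.25% lower, and the likelihood ratio test 2.52% and 3.61%.

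Of the genes that remove or oppose Polycomb marks, limma without a block, edgeR and DESeq2 called none, while limma called some in total RNA under the block or with a control library left out. Of 15 genes of H2A deubiquitination 13 had a positive fold change in total RNA (median 0.24), where 49.7% of all genes had, and 10 in footprints (median 0.11), where 50.6% had. The lean in total RNA depends on which control library is kept. Those called were all higher without control 1 and all lower without control 2. Asxl1, a cofactor of the deubiquitinase Bap1, had 0.32 ± 0.15 in total RNA and 0.22 ± 0.16 in footprints, above control in both libraries of each. Of 18 H3K27 demethylases and MLL complex genes, which methylate lysine 4, 14 were positive in total RNA (median 0.25) and 10 in footprints (median 0.09), the footprint count being near the share of all genes. Here too the total RNA calls were mostly higher without control 1 and went both ways without control 2. Kmt2a, an MLL methyltransferase, had 97.9 and 83.4 CPM of footprints in the knockdown, against 59.1 and 53.2 CPM in the control (0.68 ± 0.17, adjusted p = 0.184). In total RNA it had 151.4 and 171.7 CPM in the knockdown, against 124.9 and 71.5 CPM in the control. Kmt2d had 399.5 and 442.6 CPM of total RNA in the knockdown, against 403.7 and 155.3 CPM in the control, with control 2 apart from the other 3 libraries, while its footprints did not overlap (211.9 and 197.5 against 148.8 and 123.3 CPM, 0.59 ± 0.17). Rbbp5, a shared MLL subunit, went the other way, with 102.5 and 99.0 CPM of total RNA in the knockdown, against 140.7 and 147.0 CPM in the control (-0.51 ± 0.13, adjusted p = 0.168).

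Genes that Polycomb silences in stem cells were mostly outside the tables. Of 121 developmental regulators, the few that passed the filter on low values were tested, 39 in footprints and 33 in total RNA, with 15 and 10 above control in both libraries and 2 and 5 below. Over all genes 22.3% and 23.3% lay above and 22.5% and 24.6% below. A gene with few reads can pass a filter through the group where it is high, so these counts depend on which genes were kept. Those with the smallest p had few reads. Neurog3, a proneural factor, had 25 and 30 reads of total RNA in the knockdown, against 2 and 3 in the control (1.97 and 2.25 CPM against 0.228 and 0.333 CPM, limma adjusted p = 0.105). It passed the filter of 10 reads through the knockdown libraries alone. Tbx4, a T-box factor of limb development, had 40 and 53 reads in the knockdown, against 14 and 11 in the control. The authors' deposited table lists both as higher in total RNA, with FDRs of 8.1e-05 for Neurog3 and 0.0192 for Tbx4. Of the 33 it lists 3 as higher and 2 (Foxd3 and Pax8) as lower, where 2.21% and 3.19% of all genes are. DESeq2 called 0 of the 33 higher and 1 (Foxd3) lower, against 0.774% and 1.25% of all genes. Foxd3, which stem cells also express, was lower in both assays, at 33.9 and 24.5 CPM of footprints in the knockdown, against 56.2 and 62.4 CPM in the control (-1.01 ± 0.21, limma adjusted p = 0.123). Total RNA of the gene was 23.9 and 20.2 CPM against 37.7 and 61.1 CPM, and it fell by DESeq2 (adjusted p = 0.00532).

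Germline genes that the Pcgf6 complex represses went both ways. Of 25 tested, 12 lay above control in both libraries in footprints and 5 below, and in total RNA 9 above and 7 below. Over all genes 22.3% lay above and 22.5% below in footprints, and 23.3% and 24.6% in total RNA. Tdrd1, a Tudor protein of the piRNA pathway, had 13.6 and 14.1 CPM of total RNA in the knockdown, against 4.80 and 4.44 CPM in the control (1.40 ± 0.17, limma adjusted p = 0.0819), and rose by DESeq2 (adjusted p = 0.00133). Tdrkh, of the same pathway, had 1.16 ± 0.27 and also rose by DESeq2 (adjusted p = 0.0459). The meiotic cohesin gene Smc1b had 6.55 and 8.94 CPM of total RNA in the knockdown, against 17.2 and 18.1 CPM in the control (-1.11 ± 0.20, limma adjusted p = 0.114), and fell by DESeq2 (adjusted p = 0.0189). Pcgf6 itself had 61.8 to 72.0 CPM in footprints and 69.3 to 82.7 CPM in total RNA, and its part in these values was not tested.

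Other genes had profiles closer to the subunit mean than any subunit had. By the smallest root mean square distance over the 8 libraries, among genes with at least 10 CPM in both tables, they were Cdca2 (0.029), Cirbp (0.030), Otud5 (0.031), Brf2 (0.033) and Rpl11 (0.038). The median distance from that mean was 0.144 over the 10 subunits, which the mean includes, and 0.200 over 8019 genes. The mean profile itself was shallow, at -0.14 and -0.09 in knockdown footprints, against 0.06 and 0.17 in control footprints, and at -0.07 and -0.04 in knockdown total RNA, against 0.02 and 0.08 in control total RNA.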

How the data were processed

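Footprints and total RNA were given as 1 table each. The authors deposited signal values, made from reads per gene by dividing by an effective library size (CPM scale). They also deposited log2 fold changes, a likelihood ratio score and p-values with FDR, per the file headers. The submitters' processing notes name build mm9, edgeR 3.26.8, HTSeq 0.11.2, TopHat2 2.1.1 and Bowtie 1.2.3, with no role. All values were whole multiples, within 0.01, of the lowest nonzero value of their column, taken as 1 read (0.0751 to 0.114 CPM). That of footprint control 2 lies near 0.1 (0.0991 CPM), where rounding of the values could also make them multiples, so count tests used total RNA only.

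limma 3.58.1 (R 4.3.3) with a mean-dependent variance prior was run on log2(CPM + 1), 2 libraries against 2, with 2 residual degrees of freedom per assay and 4 over all 8 libraries. Genes were filtered with filterByExpr (edgeR 4.0.16, count 10, total 15). Scripts were tested on simulated data. Alternatives were other pseudocounts, no filter, median rescaling, each library left out, a replicate block, a joint fit, edgeR and DESeq2 1.42.0. RefSeq promoters are GRCm38.p6. The protocol calls replicates biological. P-values measure the spread between these libraries. The 10 genes and all lists were chosen with earlier results of these data known. Named list genes were from the up to 4 with the smallest p per list and assay. Levels were not compared between genes, since transcript lengths were not used here.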

Additional observations from a re-analysis of the deposited data

How the results depend on the processing

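No subunit was called in footprints or in translational efficiency under any alternative run. In total RNA the number called was 0 to 5 with 1 library left out. It was 5 without control 1 (Eed, Mtf2, Rnf2 and Pcgf6 lower, Jarid2 higher) and 1 without control 2 (Mtf2). In those fits the spread came from the knockdown pair alone, with the lone control assumed to vary like it. Their calls do not set the subunits apart, since those fits also called a large share of the 13436 genes tested. They called 6191 and 3411 of all genes. Without control 1 and without control 2 they also called 28 and 19 PRC1, 3 and 2 PRC2, 11 and 2 H2A deubiquitination, 15 and 5 MLL and demethylase, 15 and 8 developmental and 13 and 13 germline genes of the lists. The median over the subunits with 1 library left out was -0.23 to -0.17 in footprints, -0.16 to -0.040 in total RNA and -0.23 to -0.055 in translational efficiency. Signs turned as follows, and the cause was not tested. In footprints Kdm2b was -0.033 under median rescaling. With 1 library left out, footprint values ran from -0.29 to 0.094 for Suz12, -0.055 to 0.018 for Jarid2, -0.15 to 0.047 for Pcgf6 and -0.031 to 0.052 for Kdm2b, and total RNA of Ezh2 from -0.096 to 0.15. Translational efficiency ran from -0.42 to 0.10 for Eed, -0.23 to 0.15 for Suz12, -0.12 to 0.38 for Mtf2, -0.11 to 0.27 for Ring1 and -0.038 to 0.20 for Pcgf6.
The replicate number as a block called 0 subunits in each comparison and left their medians as they were (-0.20, -0.10 and -0.11), while calls among all genes numbered 21 in footprints and 636 in total RNA, against 0 and 0 without the block. Deviations of same-numbered libraries correlated at 0.23 between knockdown and control in footprints and -0.27 in total RNA over 8205 and 9013 genes. Between footprints and total RNA of the same number they correlated at 0.11 in the knockdown and 0.21 in the control over 8019 genes. With 2 pairs and no label that ties the numbers to cultures, they are not taken to pair libraries, and the interaction fit treats all 8 libraries as independent. A crossed block in total RNA, added after seeing the data, called 0 subunits and 924 of all genes. Depth limits Ring1 most, with 100 to 152 reads per footprint library.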
